A study of Mus musculus with 4 samples.

Results

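Mitosis and kinetochore genes were followed in a mouse line of liver cancer cells, LPC-HRas, with and without extra UBXN9. The 44 genes were chosen by name and function (mitotic kinases, cyclins, spindle checkpoint, centromere and kinetochore subunits, kinesins, cytokinesis factors and their transcription factors). Earlier results of these data were known when they were chosen. All 44 were found among the 55487 annotated genes of the deposited count table, and all 44 passed the filter on low counts that left 13230 genes for testing. RNA was sequenced from 2 control libraries and 2 libraries of UBXN9-overexpressing cells. Both groups were the same LPC-HRas line, unstimulated and grown in DMEM with serum, so the line and the culture were shared and UBXN9 overexpression was the labelled difference. UBXN9 is a UBX-domain protein encoded by Aspscr1. The labels do not say what the control cells received, how UBXN9 was delivered, whether cells were clones or pools, or whether libraries of a group came from separate cultures, so the spread behind each p-value is that between these libraries and may be technical only.

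Mitosis is run by cyclin-dependent kinase 1 with its A and B type cyclins, by the Aurora and Polo-like kinases, and by the spindle checkpoint, which holds back the anaphase-promoting complex until every kinetochore is attached to the spindle. The anaphase-promoting complex then marks cyclin B and securin for destruction, which frees separase to cut cohesin. Transcripts of these genes peak in G2 and M phase under the MuvB complex with B-MYB and FOXM1 and are low in resting cells, so their level in a bulk culture depends both on the share of dividing cells and on RNA per cell, which cannot be told apart here.

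Promoters of such genes often carry a CHR element, searched here as TTTGAA, and CCAAT boxes, searched as CCAAT, each on both strands. Of the 44 genes, 35 had RefSeq promoter windows (GRCm38.p6, 250 bases before to 50 after the start), 38 windows in all. Bub3, Ect2 and Prc1 had 2 overlapping windows each, so the same matches count in both. Aurkb, Ccna2, Cdc25c, Foxm1, Incenp, Kif20a, Nsl1, Spc24 and Tpx2 had none. A CHR letter match stood in 28 of the 38 windows (73.7%), against 17.9% of all 32851 RefSeq windows of the same length. By gene, it stood in 25 of the 35. All RefSeq windows likewise outnumber their 27025 genes. A CCAAT match also stood in 28 of the 38 (73.7%), against 37.4% of all windows, and 25 of the 38 (65.8%) held both, against 6.95%. The windows of 7 genes held neither: Birc5, Dsn1, Mad2l1, Mybl2, Nuf2, Nusap1 and Pttg1. Matches are letters only and do not show that a factor binds. Below are the 120 bases before the start of 4 genes with both motifs (Cdk1, Top2a, Kif11 and Cdc20) and of 2 genes that fell in UBXN9 cells and whose windows hold neither (Birc5 and Mybl2), shown 5′ to 3′ on the gene's strand to set the 2 kinds of promoter side by side. Capitals mark CHR and CCAAT matches on either strand.
Cdk1: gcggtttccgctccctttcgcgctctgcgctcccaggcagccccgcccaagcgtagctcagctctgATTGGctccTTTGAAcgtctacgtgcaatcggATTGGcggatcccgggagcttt
Top2a: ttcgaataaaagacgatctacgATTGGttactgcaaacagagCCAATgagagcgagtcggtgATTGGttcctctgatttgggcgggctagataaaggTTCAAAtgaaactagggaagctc
Kif11: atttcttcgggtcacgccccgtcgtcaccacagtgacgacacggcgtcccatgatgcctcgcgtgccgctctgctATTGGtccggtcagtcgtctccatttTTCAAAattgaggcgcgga
Cdc20: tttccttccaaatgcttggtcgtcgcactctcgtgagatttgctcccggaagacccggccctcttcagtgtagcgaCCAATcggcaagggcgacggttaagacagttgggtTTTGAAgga
Birc5: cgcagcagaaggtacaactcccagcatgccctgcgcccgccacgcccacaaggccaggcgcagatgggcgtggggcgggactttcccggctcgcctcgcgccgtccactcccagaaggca
Mybl2: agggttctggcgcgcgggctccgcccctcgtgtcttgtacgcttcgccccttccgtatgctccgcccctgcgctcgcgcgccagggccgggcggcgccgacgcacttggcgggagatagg
These stretches lie at chr10:69352939-69353058 (minus strand) for Cdk1, chr11:99024190-99024309 (minus strand) for Top2a, chr19:37376262-37376381 (plus strand) for Kif11, chr4:118437353-118437472 (minus strand) for Cdc20, chr11:117849117-117849236 (plus strand) for Birc5 and chr2:163054515-163054634 (plus strand) for Mybl2, upstream of both the RefSeq start and the GENCODE M21 gene start.

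Library totals ran from 21814969 to 26292686 counts. The overexpressed gene, Aspscr1 (chromosome 11, 120672973 to 120709447), had 92.1 and 115 CPM in the controls and 392 and 380 CPM in the UBXN9 libraries (log2 fold change 1.90, SE 0.18, edgeR adjusted p = 0.00144). CPM are counts scaled by each library's total times its TMM factor, so CPM summed over all genes differ between libraries. Of 8 hepatocyte markers, Alb, Serpina1a and Cyp3a11 had 0 counts in all 4 libraries and Hnf4a had 1 count in control 1. Apoa2 had 26 to 69 counts and Apoa1 8 to 33, with log2 fold changes of 1.10 and 0.95. Afp had 6 to 16 counts and a log2 fold change of -0.85, and Ttr had at most 5 counts. No hepatocyte marker was called. Of 8 biliary and progenitor markers, Sox9 had 3846 to 5524 counts and Spp1 48441 to 79326, Krt18 and Krt19 fell (edgeR adjusted p = 0.00972 and 0.0294), Krt8 had at most 19 counts and Krt7 and Epcam at most 4, and Prom1 was at 0. Of 7 lymphoid markers, Cd3e, Cd3g, Cd8a and Nkg7 were at 0 everywhere and the list summed to at most 0.299 CPM in any library. Summed myeloid markers were 6.68 and 6.81 CPM in the controls and 12.1 and 9.95 CPM in the UBXN9 libraries, with Clec4f at 0 and 1 of 6 genes (Lyz2) rising. Summed stellate and fibroblast markers were 224 and 206 CPM against 353 and 424 CPM, with Col1a1 and Acta2 called higher of 6. Pdgfrb, a large part of the sum, had 174 and 162 against 196 and 240 CPM and was not called. Col1a2 and Des had negative log2 fold changes (-0.76 and -0.47) and were not called, and Lrat had at most 1 count. Ribosomal RNA of CT010467.1 took 0.211% and 0.342% of control counts and 0.511% and 0.824% of UBXN9 counts. The part of these differences in the results that follow was not tested.

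The mitosis and kinetochore genes were mostly lower in UBXN9 cells, with a median of 73.0% of the control level. Their summed level was 3803 and 3847 CPM in the controls and 2827 and 2702 CPM in the UBXN9 libraries, 72.3% of the control mean. The median log2 fold change was -0.46, against -0.0056 over all genes tested. The log2 fold change was below 0 in 41 of the 44 genes, as it was in 50.5% of all genes tested. In 35 of the 44 both UBXN9 libraries lay below both controls, and in 1 both lay above; over all genes tested these shares were 25.6% and 25.0%.

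Few of these differences passed the test gene by gene. With edgeR and an adjusted p under 0.05, 6 of 44 were called, against 7.44% of all genes tested: 5 fell (Nsl1, Kif20a, Aurkb, Birc5 and Mybl2) and 1 rose (Pttg1), while 2.38% of all genes tested fell and 5.06% rose. At an unadjusted p under 0.05, 25 were lower and 1 higher, against 9.25% and 12.3% of all genes. Leaving out control 1 or control 2 left 0 of 44 called (smallest adjusted p among the 6 called genes 0.0861 and 0.206), where 5.14% and 3.67% of all genes tested were called. Leaving out UBXN9 1 gave 18 lower and 2 higher of the 44, in a fit that called 6.84% of all genes lower and 11.6% higher. Leaving out UBXN9 2 gave 22 lower and 1 higher, against 9.78% and 10.9% of all genes. In these 4 fits the median of the 44 was -0.49, -0.57, -0.46 and -0.56 on the log2 scale.

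**Figure D1:**
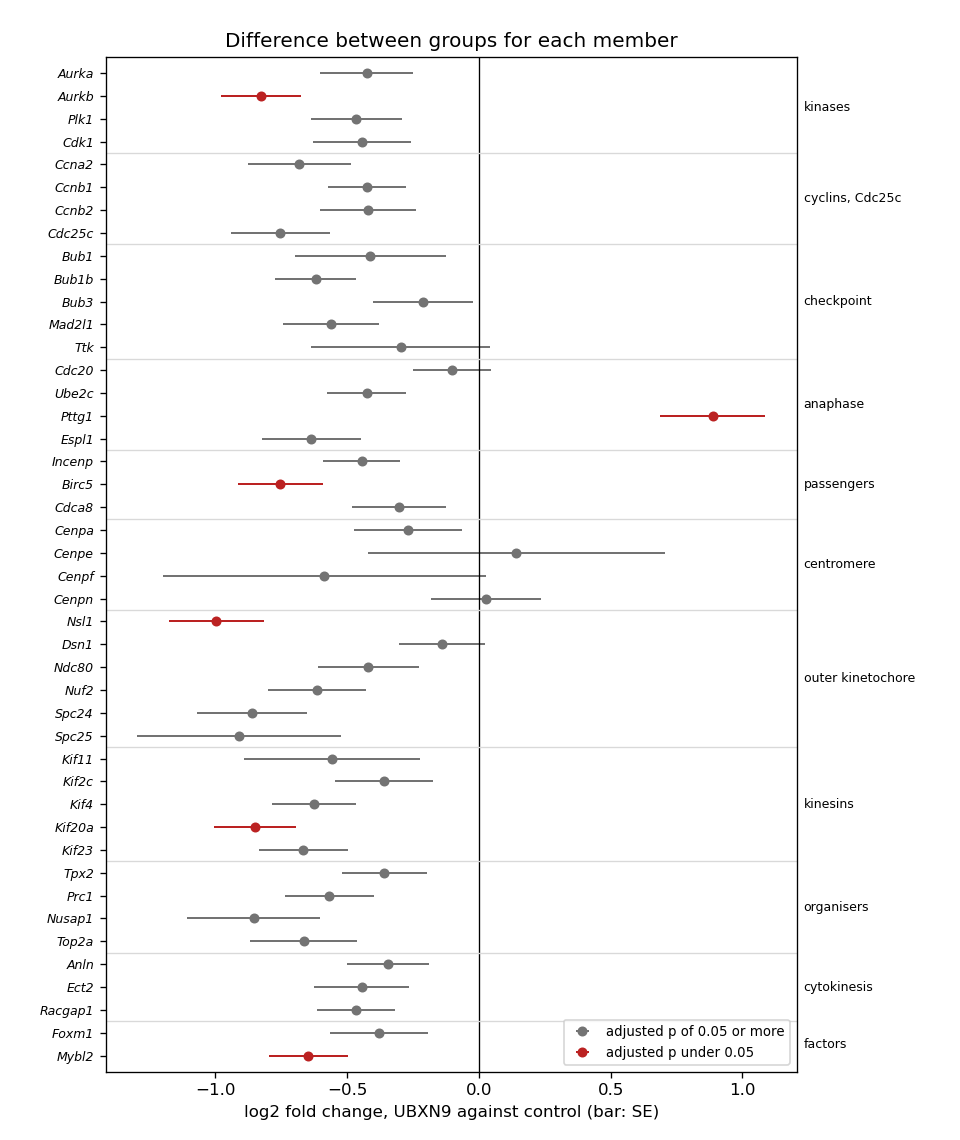
Log2 fold change of UBXN9 against control cells for each of the 44 genes (x axis), ordered by role (y axis), with the SE as a bar. Points lie left of 0 for 41 genes, and red marks the 6 with an edgeR adjusted p under 0.05, of which Pttg1 lies to the right.

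Direction was also read in each pair of a UBXN9 library and a control. UBXN9 1 was below control 1 in 40 of 44 genes and below control 2 in 42, while UBXN9 2 was below control 1 in 42 and below control 2 in 38. Over all genes tested these shares were 50.7%, 50.3%, 52.2% and 49.8% in the same order. The median log2 difference of the 44 genes was -0.57, -0.48, -0.47 and -0.47, with 0.5 CPM added to each value. The shift therefore appeared in each of the 4 pairs and did not rest on 1 library.

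Kinases that drive mitosis were lower in both UBXN9 libraries than in either control for all 4 members, and 1 of 4 passed. Over all genes tested, 7.44% were called and 25.6% were lower in both UBXN9 libraries, for this and the following roles. With so few genes in a role, 0 or 1 called does not set it apart. Aurkb encodes the kinase of the chromosomal passenger complex, which corrects faulty kinetochore attachments (chromosome 11, 69045647 to 69051664). It had 109 and 114 CPM in the controls and 65.8 and 59.9 CPM in the UBXN9 libraries. The groups did not overlap, and Aurkb fell to 56.4% of control (log2 fold change -0.83, SE 0.15, edgeR adjusted p = 0.0214; 0.105 without control 1 and 0.227 without control 2). Aurka, its paralog at the centrosome, had 122 and 142 CPM against 108 and 88.3 CPM (log2 fold change -0.43, SE 0.18, edgeR adjusted p = 0.22). The difference between the paralogs was not tested. Plk1, which acts at centrosomes, kinetochores and the midzone, stood at 72.4% of control, and Cdk1, the kinase that starts mitosis, at 73.6%; neither passed.

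The cyclins and the phosphatase that switch Cdk1 on did not pass, and all 4 lay lower in both UBXN9 libraries. Cdc25c, which removes the inhibitory phosphates from Cdk1, had 23.4 and 22.1 CPM in the controls and 13.2 and 13.8 CPM in the UBXN9 libraries (log2 fold change -0.75, SE 0.19, edgeR adjusted p = 0.0604). The libraries of each group were close and the groups apart. The B type cyclins had nearly the same difference, with log2 fold changes of -0.43 for Ccnb1 and -0.42 for Ccnb2. Ccna2, the A type cyclin of S phase and early mitosis, had a log2 fold change of -0.68 (edgeR adjusted p = 0.0909), and its exons overlap those of Exosc9, an RNA exosome gene on the other strand.

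Spindle checkpoint genes had 0 of 5 called, against 7.44% of all genes tested. In 2 of the 5 both UBXN9 libraries were lower than either control, against 25.6% of all genes tested. Bub1b, which encodes BubR1, an inhibitor of the anaphase-promoting complex, had 262 and 253 CPM in the controls and 175 and 160 CPM in the UBXN9 libraries (log2 fold change -0.62, SE 0.15, edgeR adjusted p = 0.06). Both UBXN9 libraries lay well below both controls. Mad2l1, the partner that captures Cdc20, stood at 67.7% of control, with 40.4 and 37.9 against 23.6 and 29.4 CPM. Bub3, the shared adaptor of Bub1 and BubR1, overlapped between groups and had the smallest difference (86.3% of control). Bub1 and Ttk, the kinase Mps1 that starts checkpoint signalling, also overlapped; Ttk had 6.75, 4.13, 3.68 and 5.17 CPM in control 1, control 2, UBXN9 1 and UBXN9 2.

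Of the genes that trigger anaphase, 1 of 4 rose and 0 fell, and the other three had values below control. Pttg1, which encodes securin, the inhibitor of separase (chromosome 11, 43420250 to 43426251), had 23.0 and 23.7 CPM in the controls and 49.7 and 36.8 CPM in the UBXN9 libraries. Both UBXN9 libraries were above both controls, and Pttg1 rose to 185% of control (log2 fold change 0.89, SE 0.20, edgeR adjusted p = 0.0443; 0.193 without control 1, 0.224 without control 2, 0.0644 with library totals as the scaling and 0.0537 by limma-voom). Espl1, which encodes separase itself, had 123 and 116 CPM in the controls against 65.4 and 88.3 CPM, with a log2 fold change of -0.64 (SE 0.19, edgeR adjusted p = 0.0991). Per kilobase of exonic length, the control level was 11.7 for Pttg1 and 13.6 for Espl1, and the UBXN9 level 21.6 and 8.78, in CPM per kb. Cdc20, which activates the anaphase-promoting complex and is itself held by the checkpoint, was at 93.2% of control, with 193 and 199 against 184 and 182 CPM. The exons of Cdc20 overlap those of Elovl1 on the other strand. Ube2c, the conjugating enzyme of the complex, was at 74.5% and did not pass.

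The chromosomal passenger complex holds Aurora B to the inner centromere through Incenp, Birc5 and Cdca8. Birc5, which encodes survivin (chromosome 11, 117849251 to 117855743), had 101 and 99.5 CPM in the controls and 64.9 and 54.4 CPM in the UBXN9 libraries. The controls nearly coincided, and Birc5 fell to 59.4% of control (log2 fold change -0.75, SE 0.16, edgeR adjusted p = 0.0387; 0.233 without control 1 and 0.259 without control 2). Incenp, the scaffold, had 119 and 122 against 89.99 and 87.0 CPM and did not pass (edgeR adjusted p = 0.133). Cdca8, which encodes borealin, had 106 and 125 against 103 and 83.3 CPM (edgeR adjusted p = 0.4).

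Among outer kinetochore genes 1 of 6 passed, and all 6 lay lower in both UBXN9 libraries. Nsl1, a subunit of the MIS12 complex that joins the inner to the outer kinetochore (chromosome 1, 191063012 to 191086474), had 27.2 and 28.4 CPM in the controls and 13.8 and 14.1 CPM in the UBXN9 libraries. The libraries of each group agreed closely, and Nsl1 fell to 50.1% of control, the lowest share of the 44 genes (log2 fold change -0.996, SE 0.18, edgeR adjusted p = 0.0202; 0.092 without control 1 and 0.206 without control 2). Dsn1, another MIS12 subunit, stayed at 90.9% of control with 33.1 and 32.8 against 30.9 and 29.0 CPM. The NDC80 complex, which grips microtubules, has 4 subunits, none of which passed. Their log2 fold changes were -0.42 for Ndc80, -0.61 for Nuf2, -0.86 for Spc24 (edgeR adjusted p = 0.0557) and -0.91 for Spc25 (edgeR adjusted p = 0.235). Spc25 had 14.0 and 10.8 CPM in the controls and 4.03 and 9.05 CPM in the UBXN9 libraries, and its log2 fold change was -0.45 without UBXN9 1 and -1.62 without UBXN9 2.

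Centromere proteins had the median nearest to 0 of all roles: 0 of 4 passed, none kept the groups apart and the median log2 fold change was -0.12. Cenpa, the histone H3 variant that marks the centromere, had 154 and 171 CPM in the controls and 159 and 111 CPM in the UBXN9 libraries, so UBXN9 1 lay between the controls (log2 fold change -0.27, SE 0.20, edgeR adjusted p = 0.523). Cenpn, which reads the Cenpa nucleosome, had 22.4, 23.2, 26.7 and 19.8 CPM in control 1, control 2, UBXN9 1 and UBXN9 2 (log2 fold change 0.026). Its UBXN9 libraries lay on either side of both controls. Cenpe, a kinesin that carries chromosomes to the metaphase plate, had 12.2, 8.3, 4.58 and 17.9 CPM in the same order, and its log2 fold change was 0.14 (SE 0.56), 0.81 without UBXN9 1 (edgeR adjusted p = 0.00762) and -1.16 without UBXN9 2 (edgeR adjusted p = 0.00207). Cenpf, a large kinetochore protein, had 12.0, 6.58, 2.34 and 9.95 CPM and a log2 fold change of -0.59, 0.097 without UBXN9 1 and -1.99 without UBXN9 2. For Cenpe and Cenpf no direction could be given.

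Kinesins had 1 of 5 called. Kif20a, which carries passenger proteins to the midzone (chromosome 18, 34624613 to 34633277), had 214 and 229 CPM in the controls and 130 and 116 CPM in the UBXN9 libraries. It fell to 55.5% of control, with no overlap (log2 fold change -0.85, SE 0.16, edgeR adjusted p = 0.0214; 0.0861 without control 1 and 0.212 without control 2). Its exons overlap those of Cdc23 on the other strand, and no strand setting is given for the counts. Kif23 and Kif4, which also act at the midzone, stood at 63.0% and 64.9% of control (edgeR adjusted p = 0.0647 and 0.0658), Kif2c, a microtubule depolymerase, at 78.0%, and Kif11, the motor that separates spindle poles, overlapped between groups with 25.9, 16.3, 10.5 and 18.2 CPM.

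**Figure D2:**
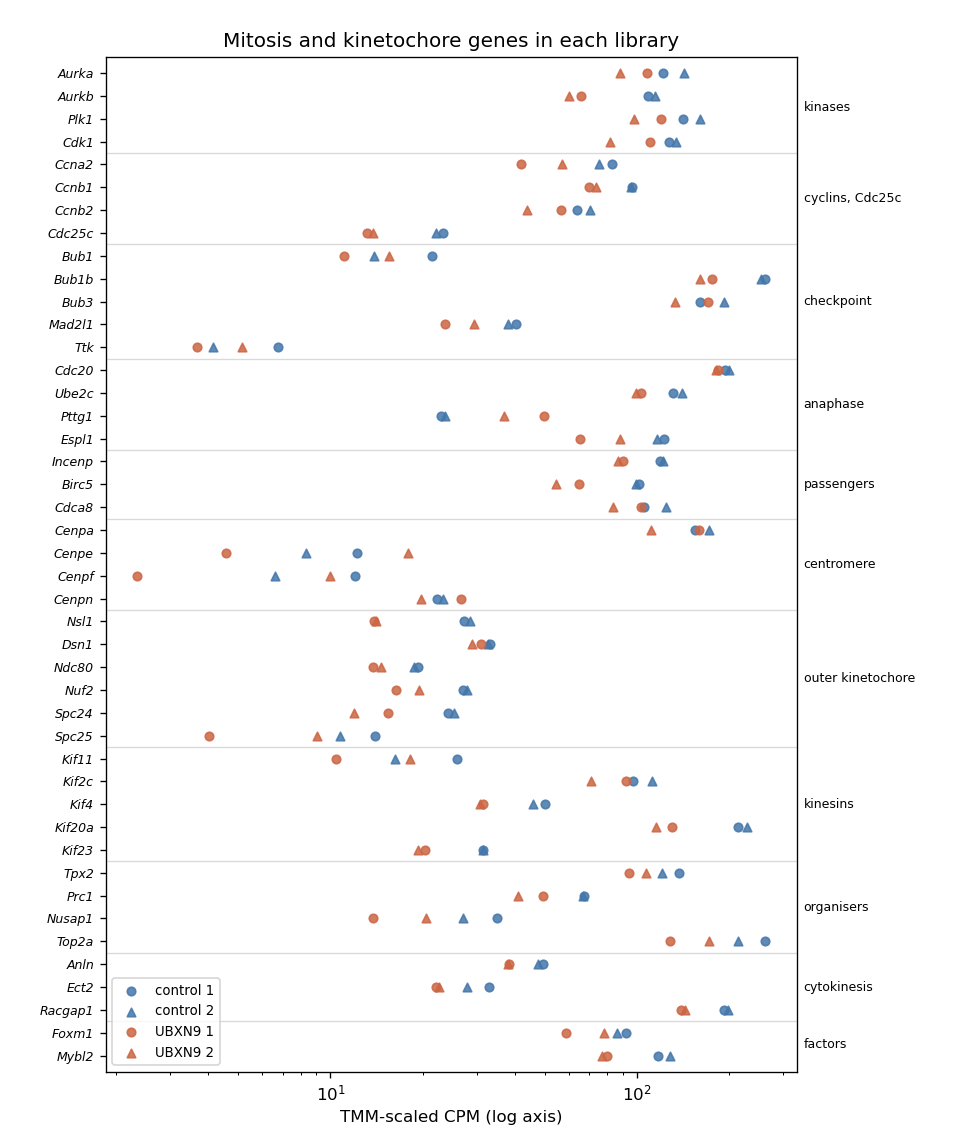
CPM of each of the 44 genes (y axis, by role) in each library on a log axis (x axis); blue is control, orange UBXN9, circles are library 1 and triangles library 2. Blue points lie right of both orange points for 35 genes, and for Pttg1 the order is turned.

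Spindle and chromosome organisers had 0 of 4 called and all 4 apart between groups. Nusap1, a microtubule bundler, had 35.0 and 27.1 CPM in the controls and 13.7 and 20.5 CPM in the UBXN9 libraries (log2 fold change -0.85, SE 0.25, edgeR adjusted p = 0.0986), and its exons overlap Oip5 on the other strand. Top2a, the topoisomerase that untangles sister chromatids, had 263 and 213 against 128 and 172 CPM, or 63.1% of control. Both were lower in UBXN9 1 than in UBXN9 2. Prc1, which crosslinks midzone microtubules, stood at 67.5% of control and Tpx2, the activator of Aurora A, at 78.0%.

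The cytokinesis genes stood at similar shares of control. Racgap1, Ect2 and Anln, which position and build the contractile ring through RhoA, stood at 72.4%, 73.5% and 78.8% of control, and none passed. Racgap1 had 193 and 198 CPM in the controls and 139 and 144 CPM in the UBXN9 libraries (log2 fold change -0.47, SE 0.15, edgeR adjusted p = 0.121). Its libraries lay close together within each group, with a gap between the groups. Of the transcription factors, Mybl2, which encodes B-MYB (chromosome 2, 163054687 to 163084688), had 117 and 129 CPM in the controls and 79.8 and 77.1 CPM in the UBXN9 libraries. Mybl2 fell to 63.8% of control (log2 fold change -0.65, SE 0.15, edgeR adjusted p = 0.0488; 0.256 without control 1, 0.514 without control 2, 0.0517 with RLE factors and 0.0521 by limma-voom). Foxm1, the factor that takes over in G2, had 92.3 and 86.0 against 58.8 and 78.3 CPM (log2 fold change -0.38, edgeR adjusted p = 0.302).

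Changes were also set beside the promoter matches. The median log2 fold change was -0.44 over the 25 genes with a CHR match and -0.49 over the 10 without one, given as a description with no test. With at least 2 CCAAT matches the median was -0.43 (16 genes), and with fewer it was -0.56 (19 genes).

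Libraries of a group differed from each other along gene length. Between the UBXN9 libraries, the long genes Cenpf and Cenpe were higher in UBXN9 2 by 1.88 and 1.86 on the log2 scale with 0.5 CPM added. Single genes departed from the trend. Cenpa, whose 5860 exonic bases exceed the members' median of 4798, was lower there, at -0.51. Spc25, with 3188 bases, was higher, at 1.08. Across the 44 genes, which share libraries and are not independent, Spearman's correlation with exonic length was 0.41 for UBXN9 2 minus UBXN9 1 and -0.38 for control 2 minus control 1. Over all 13219 tested genes with a length the same values were 0.42 and -0.33. For the difference between the groups it was -0.021 over the 44. In the 22 shorter genes the median log2 difference from the controls was -0.46 in UBXN9 1 and -0.52 in UBXN9 2, and in the 22 longer genes it was -0.60 and -0.44. Both length classes were therefore lower in both UBXN9 libraries, but the order of the UBXN9 libraries turned. With each library's length trend removed, 14 of the 44 were lower and 1 higher at the same threshold, with a median of -0.44, and calls over all genes tested also went up, to 4.15% lower and 7.53% higher.

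**Figure D3:**
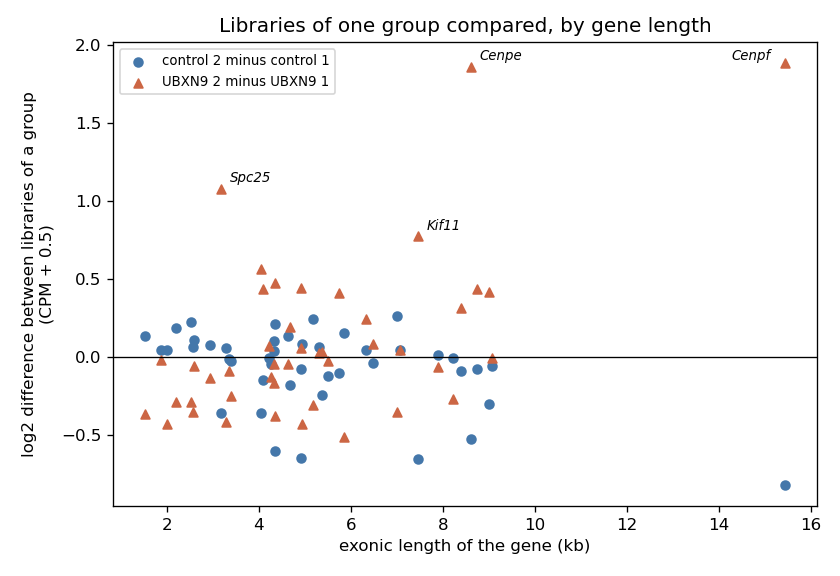
Log2 difference between the libraries of a group (y axis, CPM + 0.5) against exonic length in kb (x axis) for the 44 genes; circles are control 2 minus control 1 and triangles UBXN9 2 minus UBXN9 1. Triangles rise with length to 1.88 at Cenpf, and circles fall.

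Per kilobase of exonic length the 44 genes spanned control means from 0.603 to 105 CPM per kb. The most abundant in the control libraries and over all libraries were Cdc20, Plk1 and Bub1b, with control means of 105, 68.5 and 60.2 CPM per kb. The least abundant were Ttk, Cenpe and Cenpf, with 1.11, 1.19 and 0.603 CPM per kb. These 3 all overlapped between groups. The lowest count of any member in any library was 47.

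Genes of the same processes outside the 44 were taken from lists that, like the 44, were chosen with earlier results of these data known. They are therefore given as description. Of 44 further spindle, kinesin and mitotic entry genes, 5 fell and 0 rose, against 2.38% and 5.06% of all genes tested. All 44 had a negative log2 fold change, against 50.5% of all genes tested, and the median was -0.54. In 34 both UBXN9 libraries were lower than either control, against 25.6% of all genes tested. Pimreg, a mitotic regulator, had 133 and 147 CPM against 80.8 and 76.6 CPM, and Iqgap3, a scaffold tied to proliferation, had 95.7 and 109 against 52.6 and 58.9 CPM (edgeR adjusted p = 0.0213 and 0.0217). Ckap2l and Cdca2 also fell, with log2 fold changes of -0.82 and -0.81. The other kinetochore and centromere genes had 0 of 31 called, against 7.44% of all genes tested, with 27 negative values and a median of -0.35. Mis18a, which helps to load Cenpa, was nearest to the threshold (edgeR adjusted p = 0.0927).

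Cohesin and condensin genes had 2 of 18 lower and 0 higher, against 2.38% and 5.06% of all genes tested, with a median of -0.26. Ncapd2, a condensin subunit, fell from 390 and 452 CPM to 222 and 232 CPM (log2 fold change -0.89, SE 0.17, edgeR adjusted p = 0.0227), and Cdca5, which encodes sororin, the protector of cohesion, fell by 0.76 on the log2 scale (edgeR adjusted p = 0.0447). The anaphase-promoting complex had 0 of 17 called, against 7.44% of all genes tested. It had 9 negative and 8 positive values and a median of -0.021. The smallest p was that of Cdc23, which overlaps Kif20a (edgeR adjusted p = 0.204).

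Genes that act before mitosis were set beside these. DNA replication genes had 1 of 40 called lower, near the 2.38% of all genes tested, and 0 higher, against 5.06%. They had 36 negative values, against 50.5% of all genes tested, a median of -0.33 and a summed level at 83.3% of control. Rrm2, a ribonucleotide reductase subunit, had 158 and 165 against 90.4 and 94.97 CPM (edgeR adjusted p = 0.0221). The DREAM, RB and E2F list had 0 of 18 called, against 7.44% of all genes tested, with E2f8 nearest (log2 fold change -0.94, edgeR adjusted p = 0.0525). CDK inhibitors had 0 of 7 tested called, against the same 7.44%, with 4 negative and 3 positive values and a median of -0.20. Cdkn2b, a blocker of Cdk4 and Cdk6, was nearest to the threshold. It had 86.9 and 86.3 CPM against 122 and 125 CPM (log2 fold change 0.51, edgeR adjusted p = 0.0894). G1 cyclins and kinases had 0 of 8 called, against the same 7.44%, and a median of 0.047. Ccnd2 was nearest (log2 fold change 0.71, edgeR adjusted p = 0.0828).

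**Figure D4:**
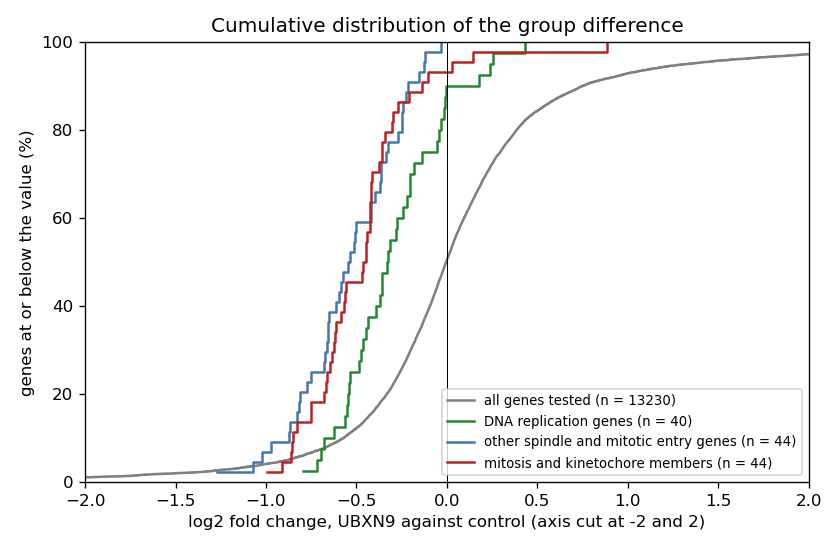
Share of genes (y axis, percent) at or below each log2 fold change of UBXN9 against control (x axis) for all 13230 genes tested, the 44 mitosis and kinetochore genes, 44 other spindle and mitotic entry genes and 40 DNA replication genes. The mitotic curves lie left of the curve of all genes, with medians of -0.46 and -0.54, and that of replication genes lies between, at -0.33.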

How the data were processed

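Per the labels' protocols, TRIzol RNA went into TruSeq RNA libraries for Illumina HiSeq sequencing. Estimated counts per gene and library, unscaled, were deposited; HISAT2 2.1.0, HTSeq and GRCm38.p6 are named in the submitters' processing notes, and strand and annotation settings are not given in the sources used here. Of all values 89% are whole, and the rest were rounded. The 241 unannotated loci were left out. Of 55487 identifiers, 55227 matched GENCODE M21, which gave symbols, positions, overlaps and exonic length (all exons merged). Exons of 12 members overlap those of another gene, 10 of them on the opposite strand. These 10 are Plk1, Ccna2, Cdc25c, Cdc20, Ube2c, Cdca8, Kif4, Kif20a, Prc1 and Nusap1, and the part of overlapping reads in their counts was not tested.

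The test was that of edgeR 4.0.16 under R 4.3.3 (TMM, filterByExpr, quasi-likelihood F test of the group, two-sided, Benjamini-Hochberg over 13230 genes, adjusted p under 0.05). The SE of a log2 fold change was taken from the F statistic. With 2 libraries a group, exact permutation reaches no p below 0.333 (two-sided) and was not used. The procedure was also run on simulated data, whose outcome is not given here and is not used as support. Alternatives were RLE and no composition factors, 2 other filters, DESeq2 1.42.0, limma-voom (limma 3.58.1), a replicate block, a length trend offset (lowess, span 0.3) alone and with the block, each library left out, and, chosen after the data were seen, a crossed block. Where 1 library of a group remains, its spread is taken from the other group. Figures used matplotlib 3.10.9.

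The 44 genes and the lists were chosen with earlier results of these data known. Named with every library's value were genes with an adjusted p under 0.05, the smallest p of each role and any with a positive log2 fold change; of other lists, up to 4 called genes or else the smallest p. Further members' values were chosen after they were seen. The marker lists (hepatocyte, biliary and progenitor, lymphoid, myeloid, endothelial, stellate and fibroblast) served to check the cells: biliary and progenitor markers summed to 2386 to 3202 CPM with 2 of 8 lower, endothelial to 1.91 to 4.38 CPM and hepatocyte to 2.4 to 4.28 CPM with 0 called.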

Additional observations from a re-analysis of the deposited data

How the results depend on the processing

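The 6 called genes kept their direction in all 84 values over the 14 alternatives, and 39 of the 44 genes were negative in every one. Members called numbered 6, where 7.44% of all genes tested were called. Under settings near it they numbered 5 with RLE (7.63% of all genes) and 7 with library totals (5.68%). With the 5 CPM filter they numbered 6 (7.26%), and with limma-voom 4 (7.39%). There were 16 without the filter (15 lower), 14 with DESeq2 (13 lower, where 3.02% of all 13230 genes were lower and 6.42% higher, 1249 in all), 15 with the length trend offset (14 lower), and between 0 and 23 with a library left out. The cause was not tested. Without the filter, 22729 genes were tested, of which 3% were called lower and 5.03% higher. With the length trend offset, 4.15% of 13219 genes were called lower and 7.53% higher. Over all genes, 984 were called, 1827 without the filter, 1544 with the length trend offset, and between 508 and 2782 with a library left out. The median of the 44 was -0.46, was -0.55 with library totals, and lay between -0.57 and -0.46 with a library left out. Genes apart between groups numbered 36, and 36 to 38 under other scaling factors or filters. With a library left out they numbered 38 to 42. Those fits hold fewer values that could overlap, so the higher counts do not show a firmer separation. The share of all genes apart in those fits was not counted.

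Same-numbered libraries did not deviate together: the correlation of their deviations across genes was -0.37, and over the 44 genes -0.84. The differences within each group ran along gene length in opposite directions, and this enters the correlation. The correlation therefore cannot show whether same-numbered libraries were prepared together, which the labels do not say. With a replicate block 1 of the 44 was called (Nsl1) and 932 of all genes (7.04%). With block and length trend offset the counts were 5 and 1059 (8.01%). Control 1 paired with UBXN9 2 in a crossed block, chosen after the data were seen, called 33 members and 3137 genes (23.7% of all genes tested).

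Signs turned for 4 genes that were not called with all libraries. Cenpe was -0.094 by limma-voom, -0.13 with the replicate block, -0.12 with block and length trend offset and -0.076 with the crossed block, and Cenpn was -0.072 with library totals. With a library left out, Cenpe ranged from -1.16 to 0.81, Cenpf from -1.99 to 0.097, Cenpn from -0.20 to 0.23 and Ttk from -0.60 to 0.096.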
